A study of Homo sapiens with 6 samples.

Results

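The 41 genes described here belong to the response to low oxygen and to glycolysis. They comprise 7 hypoxia-inducible factor (HIF) subunits and regulators, 10 hypoxia targets outside glycolysis, 4 glucose and lactate carriers, 17 glycolytic enzymes and 3 regulators of glycolysis. They were chosen by gene symbol with earlier results of these data known, and all 41 were found among the 30727 genes of the deposited tables. Of these, 40 had enough reads to be tested, and SLC2A3 did not. The data are RNA-seq of poly(A) RNA from the human pancreatic ductal carcinoma line PANC-1, with 3 libraries of cells given siRNA against SUV420H2 (knockdown) and 3 control libraries. The SUV420H2 gene (current symbol KMT5C) encodes a methyltransferase of lysine 20 on histone H4. Both groups are the same single cell line. The sources used here do not give the siRNA sequences, the kind of control, the time after treatment or the oxygen level of the cultures. Whether replicates are separate cultures is not in the labels. The p-values therefore measure spread between these libraries alone, and that spread may be technical.

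In cells with enough oxygen, the prolyl hydroxylases of the EGLN family mark the HIF alpha subunits (HIF1A and EPAS1), the VHL ubiquitin ligase binds the marked subunit, and the subunit is degraded. When oxygen is low, the alpha subunits persist, pair with ARNT and bind DNA at a core motif that contains ACGTG, among others near genes for glucose uptake, glycolysis and blood vessel growth. Control of HIF1A acts largely on the protein, which RNA sequencing does not measure. Carcinomas of the pancreatic duct are known as poorly supplied with oxygen and as strong users of glycolysis.

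The knockdown libraries held 27007534 to 38022772 counted reads and the control libraries 20863594 to 25931995. KMT5C had 6.03, 6.11 and 5.86 counts scaled to library size (CPM) in the knockdown libraries, against 9.55, 7.23 and 12.7 CPM in the controls, and was at 60.6% of the control level. Control replicate 3 stood apart from the other controls, with a chi-square per degree of freedom of 11.3 and 13.6 against them, where control replicates 1 and 2 gave 1.55 and the knockdown pairs gave 1.98 to 2.26. The ductal markers KRT8, KRT18, KRT19, KRT7 and EPCAM were all detected, and 4 of the 5 rose, EPCAM by 2.35, KRT18 by 1.57, KRT8 by 1.54 and KRT7 by 1.29 on the log2 scale, while KRT19 fell (−0.32, adjusted p = 0.00472). EPCAM averaged 40.3 ± 1.02 RPKM in the knockdown and 7.80 ± 0.457 RPKM in the controls (SD, n = 3 each), and the part of these marker changes in the results that follow was not tested. None of the 4 astrocyte, 5 leukocyte and microglia, 4 endothelial and 3 fibroblast markers passed the count filter, with no value above 0.126 RPKM, and the 5 neuron markers stayed at or below 1.14 RPKM. In bulk RNA, fewer cells that express a gene and less of its RNA per cell cannot be told apart.

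Most of the 40 genes tested were lower in the knockdown, and falls were most frequent among the glycolytic enzymes and the regulators of glycolysis. Of the 40 tested, 25 fell, 8 rose and 7 did not pass edgeR's quasi-likelihood test at an adjusted p of 0.05. Over all 15190 genes tested, 67.3% passed, of which those that fell were 34.2% of the genes tested and those that rose 33.1%. The median log2 fold change was −0.34 over the 40 genes and −0.01 over all genes. The groups did not overlap in CPM for 34 of the 40, against 71.3% of all genes. Falls of at least 2-fold were found for 3 of the 40 (6.01% of all genes) and a rise of that size for 1 (8.01%). Against a 1.5-fold change, 9 fell and 3 rose, where 19.7% of all genes passed in either direction. The falls were unevenly spread over the roles: 14 of 17 glycolytic enzymes fell, as did all 3 regulators of glycolysis, 6 of 10 hypoxia targets outside glycolysis, 2 of 7 HIF factors and regulators and none of the 3 carriers tested. The median log2 fold change was −0.46 for the enzymes, −0.36 for the regulators of glycolysis, −0.38 for the targets outside glycolysis, −0.09 for the HIF factors and regulators and 0.18 for the carriers. These differences between roles were not tested.

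**Figure D1:**
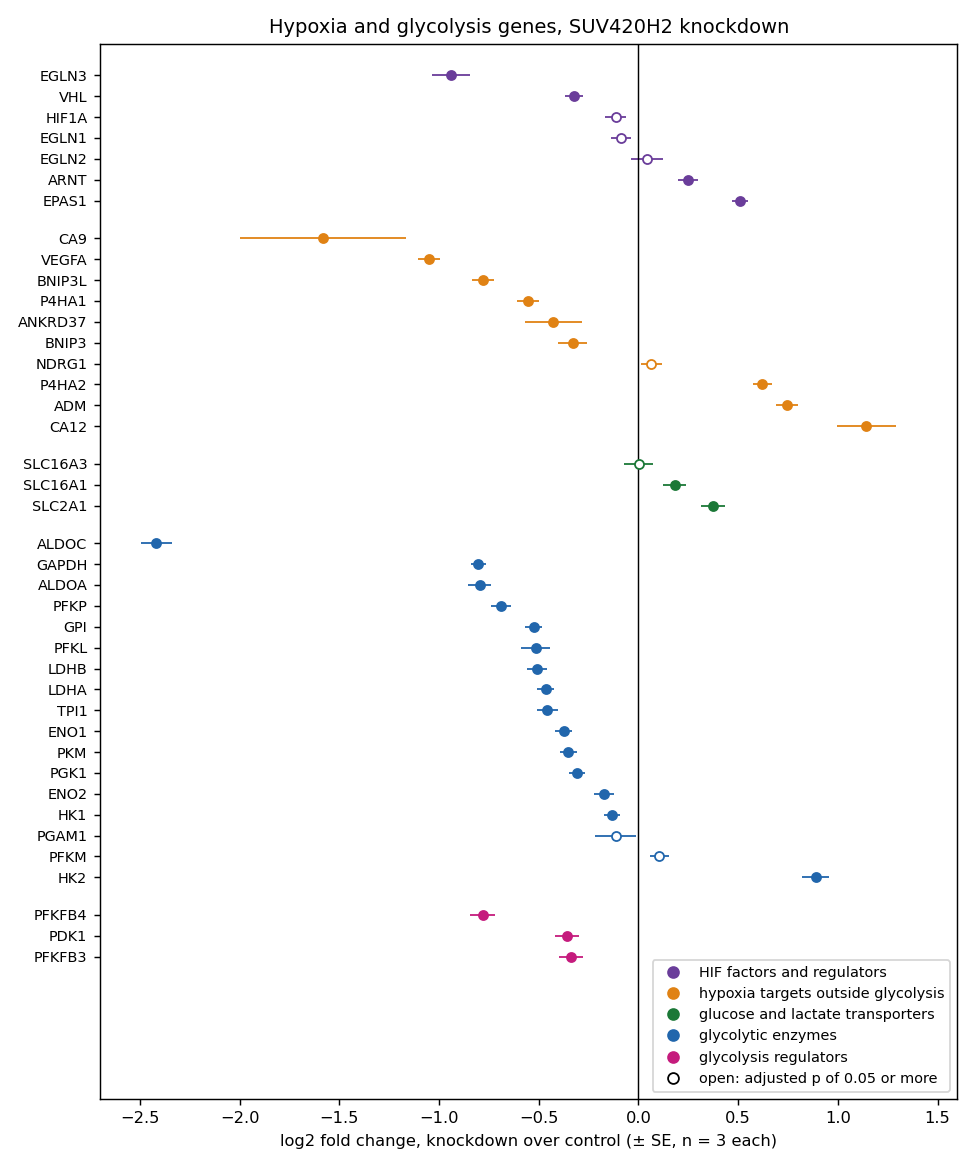
Log2 fold change of each of the 40 genes tested, knockdown over control, with its standard error (n = 3 libraries each), by role. Filled points passed the threshold and open points did not. The enzymes lie between −2.42 for ALDOC and 0.89 for HK2, and all but HK2 and PFKM lie below 0.

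The 17 glycolytic enzymes together took 1.02% to 1.04% of all counted reads in the knockdown libraries and 1.42% to 1.49% in the controls. In a level per length (the authors' size-factor-adjusted RPKM), they summed to 3513, 3445 and 3510 RPKM in the knockdown and to 4941, 4951 and 5122 RPKM in the controls. Every control library lay above every knockdown library. Single enzymes ranged widely, from a mean of 2.94 RPKM for ALDOC to 862 RPKM for ENO1 in the knockdown, and from 2.68 RPKM for HK2 to 1207 RPKM for GAPDH in the controls.

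At the first step, in which hexokinase traps glucose as glucose 6-phosphate, the gene forms went opposite ways. HK2, the form known as inducible by HIF and insulin and abundant in many tumours, had 5.00, 4.98 and 5.10 RPKM in the knockdown and 2.93, 2.54 and 2.56 RPKM in the controls. It rose by 0.89 on the log2 scale (SE 0.0662, adjusted p = 4.88e-07). HK2 was the only enzyme of the 17 to pass as higher in the main test. HK1, the broadly expressed form, had 37.6, 37.8 and 36.9 RPKM in the knockdown and 39.3, 41.5 and 40.8 RPKM in the controls, a small fall (−0.13, SE 0.0410, adjusted p = 0.0143). That call was lost without control replicate 2 (adjusted p = 0.0629), knockdown replicate 1 (0.0534) or knockdown replicate 3 (0.0722; range over all alternatives 0.000917 to 1). HK2 made up 11.8% ± 0.275 of hexokinase RPKM in the knockdown and 6.21% ± 0.639 in the controls (SD, n = 3 each), while the hexokinase sum overlapped between the groups, at 42.5 ± 0.409 RPKM in the knockdown and 43.2 ± 0.919 RPKM in the controls. HKDC1 was listed at 0.601 ± 0.0285 RPKM in the knockdown and 0.471 ± 0.0307 RPKM in the controls (SD, n = 3 each) and did not pass.

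GPI, which turns glucose 6-phosphate into fructose 6-phosphate, fell to 110, 108 and 109 RPKM in the knockdown, against 151, 152 and 160 RPKM in the controls (−0.53, SE 0.0421, adjusted p = 8.63e-07). Phosphofructokinase, the committed step, is made from 3 genes, and the main one fell. PFKP, the platelet form, had 99.9, 99.2 and 95.1 RPKM in the knockdown and 153, 149 and 167 RPKM in the controls (−0.69, SE 0.0518, adjusted p = 5.22e-07). PFKL, the liver form, fell as well, to 20.0, 19.3 and 18.3 RPKM in the knockdown, against 25.5, 25.6 and 30.3 RPKM in the controls (−0.51, SE 0.0723). PFKM, the muscle form, did not pass, at 15.1, 15.3 and 15.7 RPKM in the knockdown and 14.0, 14.7 and 13.6 RPKM in the controls (0.11, SE 0.0464, adjusted p = 0.0641). Its value passed as a rise without control replicate 2 (adjusted p = 0.0494) and with a GC trend removed (0.00671, range over all alternatives 0.00671 to 1). PFKM also passed as a rise with library totals only, with a length trend removed and with the filter on mean log2 CPM. Whether it counts as a rise thus depends on scaling and filter. PFKM overlaps SENP1 on the other strand, which did not pass (−0.10, adjusted p = 0.209). The share of PFKM in phosphofructokinase RPKM was 11.6% ± 0.486 in the knockdown and 7.17% ± 0.660 in the controls, and that of PFKP 73.9% ± 0.244 in the knockdown and 79.1% ± 0.327 in the controls (SD, n = 3 each).

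Aldolase held the largest fall among the 40 genes. ALDOC, the brain form and a gene known to be induced by HIF, had 2.82, 2.89 and 3.11 RPKM in the knockdown and 14.5, 15.8 and 16.2 RPKM in the controls. Its level in the knockdown was 18.7% of that in the controls (−2.42, SE 0.0789, adjusted p = 1.26e-09), and the groups were far apart. ALDOA, the main form here, fell less, to 363, 348 and 356 RPKM in the knockdown, against 583, 583 and 664 RPKM in the controls (−0.80, SE 0.0574, adjusted p = 3.78e-07). ALDOC was thus 0.819% ± 0.0468 of aldolase RPKM in the knockdown and 2.48% ± 0.135 in the controls (SD, n = 3 each).

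Among the later steps, which yield ATP, GAPDH changed most. GAPDH, which couples the oxidation of glyceraldehyde 3-phosphate to NADH, had 702, 696 and 704 RPKM in the knockdown and 1197, 1193 and 1232 RPKM in the controls. It fell to 57.3% of the control level (−0.80, SE 0.0392, adjusted p = 1.95e-08). TPI1, which interconverts the triose phosphates, fell to 50.2, 50.3 and 51.2 RPKM in the knockdown, against 66.8, 65.9 and 72.7 RPKM in the controls (−0.46, SE 0.0505), and overlaps SPSB2 on the other strand by 14 bases. PGK1, the first enzyme to make ATP, fell to 239, 233 and 245 RPKM in the knockdown, against 294, 300 and 284 RPKM in the controls (−0.31, SE 0.0397). PGAM1, a phosphoglycerate mutase, had only 3.61 ± 0.210 RPKM in the knockdown and 3.85 ± 0.403 RPKM in the controls (SD, n = 3 each) and did not pass (−0.11, SE 0.103, adjusted p = 0.347). The annotation names 13 pseudogenes after PGAM1 and 65 after GAPDH, and reads that align equally well to such copies are absent from counts of uniquely aligned reads, so the levels of these genes are uncertain. The share of reads lost in this way was not tested.

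ENO1, the main enolase, fell to 874, 848 and 863 RPKM in the knockdown, against 1082, 1084 and 1143 RPKM in the controls (−0.37, SE 0.0427). ENO2, the neuronal form, fell by less, to 21.3, 21.2 and 20.9 RPKM in the knockdown, against 24.4, 22.5 and 23.7 RPKM in the controls (−0.17, SE 0.0501, adjusted p = 0.00975), a call lost without control replicate 1 (adjusted p = 0.0605; range over all alternatives 0.00131 to 1). PKM, pyruvate kinase, fell to 451, 445 and 442 RPKM in the knockdown, against 547, 554 and 585 RPKM in the controls (−0.35, SE 0.0433); gene counts do not part its PKM1 and PKM2 splice forms. The lactate dehydrogenase genes fell almost equally. LDHA, the HIF-induced form that favours lactate, had 309, 316 and 327 RPKM in the knockdown and 444, 443 and 412 RPKM in the controls (−0.47, SE 0.0427). LDHB had 209, 197 and 215 RPKM in the knockdown and 299, 301 and 271 RPKM in the controls (−0.51, SE 0.0494). LDHA made up 60.5% ± 0.956 of the pair in the knockdown and 59.8% ± 0.426 in the controls (SD, n = 3 each).

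Because the falls were unequal, the order of the most abundant enzymes differed between the groups. ENO1 was first and GAPDH second by mean RPKM in the knockdown, whereas GAPDH was first and ENO1 second in the controls. PKM likewise ranked above ALDOA in the knockdown and below it in the controls. GAPDH, TPI1 and ENO2 lie near each other on chromosome 12 (GRCh38.p14; GAPDH from 6534517 to 6538371, TPI1 from 6867420 to 6870948, ENO2 from 6914580 to 6923697), and fell by unequal amounts.

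**Figure D2:**
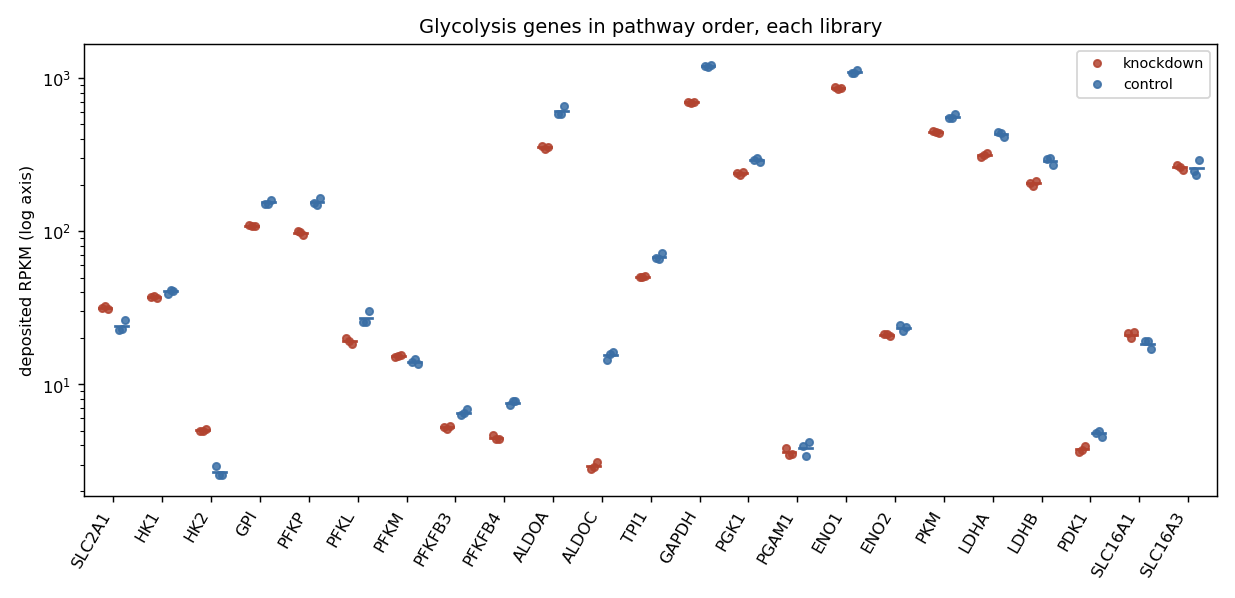
Deposited RPKM of glycolysis genes in each library on a log axis, in the order of the pathway from glucose uptake (SLC2A1) to lactate export (SLC16A3), knockdown left of control. Points are libraries and bars are means of 3. The groups are furthest apart at ALDOC, and HK2 and SLC2A1 are the clearest exceptions to the falls.

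The 3 regulators of glycolysis all fell. PFKFB4 and PFKFB3 make fructose 2,6-bisphosphate, the activator of phosphofructokinase, and both are known hypoxia targets. PFKFB4 had 4.68, 4.38 and 4.38 RPKM in the knockdown and 7.32, 7.79 and 7.76 RPKM in the controls (−0.78, SE 0.0641, adjusted p = 1.05e-06). PFKFB3 had 5.26, 5.14 and 5.34 RPKM in the knockdown and 6.31, 6.47 and 6.90 RPKM in the controls (−0.34, SE 0.0604). PFKFB4 overlaps UCN2, which went the other way (1.57, adjusted p = 9.33e-05) on few reads, 200 in the knockdown and 50 in the controls. PDK1, a kinase that shuts off pyruvate dehydrogenase, had 3.62, 3.74 and 3.97 RPKM in the knockdown and 4.84, 4.96 and 4.55 RPKM in the controls (−0.36, SE 0.0610).

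The carriers at both ends of the pathway did not fall. SLC2A1, the glucose transporter GLUT1 and a classical HIF target, rose to 31.4, 32.4 and 31.1 RPKM in the knockdown, against 22.8, 23.1 and 26.3 RPKM in the controls (0.37, SE 0.0605, adjusted p = 0.000223). SLC16A1, a lactate and pyruvate carrier, was slightly higher, at 21.7, 20.1 and 21.9 RPKM in the knockdown and 19.3, 19.1 and 17.1 RPKM in the controls (0.18, SE 0.0556, adjusted p = 0.0135), but did not pass without knockdown replicate 1 (adjusted p = 0.0608) or 3 (0.0653; range over all alternatives 4.8e-05 to 1). SLC16A3, the HIF-induced lactate exporter, stood at 271, 262 and 253 RPKM in the knockdown and 249, 235 and 291 RPKM in the controls, with overlap and no call (0.00, SE 0.0726, adjusted p = 0.988). Control replicate 3 held its highest value, and without that library SLC16A3 passed as higher (0.10, adjusted p = 0.00549; range over all alternatives 0.00549 to 1). It shares a stretch with CSNK1D, which rose (0.42), and their reads may be mixed. SLC2A3, the glucose transporter GLUT3, had 12, 11 and 8 reads in the knockdown and 7, 0 and 2 reads in the controls, too few for the filter. Without a count filter SLC2A3 passed as higher, on these few reads.

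Among the oxygen-sensing genes, the alpha subunits and their partner did not move together. EPAS1, which encodes HIF-2 alpha, rose to 43.1, 43.8 and 42.4 RPKM in the knockdown, against 30.0, 29.1 and 30.6 RPKM in the controls (0.51, SE 0.0417, adjusted p = 1.01e-06). ARNT, the common partner subunit, rose to 14.2, 15.5 and 14.7 RPKM in the knockdown, against 12.3, 12.8 and 11.7 RPKM in the controls (0.25, SE 0.0514, adjusted p = 0.00125). HIF1A did not pass, at 35.7, 36.9 and 36.4 RPKM in the knockdown and 41.0, 40.2 and 35.4 RPKM in the controls (−0.11, SE 0.0530, adjusted p = 0.0798). Control replicate 3 was the lowest of the 3 controls, and without it HIF1A passed as lower (−0.18, adjusted p = 1.2e-05). HIF1A also passed with a GC trend removed (−0.07, adjusted p = 0.0317, range over all alternatives 1.2e-05 to 1). HIF1A has the antisense partners HIF1A-AS1 and HIF1A-AS2, whose reads cannot be told apart from its own if strand was not used, and the strand setting is not known here. By mean RPKM, EPAS1 lay above HIF1A in the knockdown, and HIF1A above EPAS1 in the controls. EPAS1 made up 54.3% ± 0.483 of their summed RPKM in the knockdown and 43.5% ± 2.45 in the controls (SD, n = 3 each).

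Of the genes that lead HIF alpha to degradation, VHL fell to 20.4, 19.4 and 21.0 RPKM in the knockdown, against 26, 24.9 and 24.4 RPKM in the controls (−0.32, SE 0.0462, adjusted p = 8.49e-05). EGLN3, the prolyl hydroxylase known as the most strongly induced by HIF itself, fell to 1.10, 1.09 and 1.14 RPKM in the knockdown, against 2.13, 2.10 and 2.09 RPKM in the controls (−0.94, SE 0.0954, adjusted p = 5.77e-06). It was a minor form, with 2.68% ± 0.0974 of EGLN RPKM in the knockdown and 5.11% ± 0.525 in the controls (SD, n = 3 each). EGLN1, the main HIF hydroxylase in most cells, overlapped between the groups, at 9.14, 8.70 and 8.88 RPKM in the knockdown and 9.47, 8.86 and 9.70 RPKM in the controls (−0.09, SE 0.0509, adjusted p = 0.15). EGLN2 overlapped too, at 31.6, 31.7 and 30.8 RPKM in the knockdown and 28.4, 27.2 and 34.4 RPKM in the controls (0.04, SE 0.0795, adjusted p = 0.652), and passed as higher without control replicate 3 (0.16, adjusted p = 0.000849; range over all alternatives 0.000849 to 1). The readthrough gene RAB4B-EGLN2 covers EGLN2 on the same strand, so the reads of both are uncertain. The summed EGLN level was 41.4 ± 0.534 RPKM in the knockdown and 41.4 ± 4.18 RPKM in the controls.

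Hypoxia targets outside glycolysis split. VEGFA, the growth factor of blood vessels, had 17.4, 18.2 and 17 RPKM in the knockdown and 34.9, 34.6 and 38.1 RPKM in the controls, and fell by 1.05 on the log2 scale (SE 0.0543, adjusted p = 2.98e-08). BNIP3L and BNIP3, which direct mitochondria to autophagy, both fell. BNIP3L had 14.3, 14.1 and 14.8 RPKM in the knockdown and 25.5, 25.4 and 22.6 RPKM in the controls (−0.78, SE 0.0539, adjusted p = 2.67e-07). BNIP3 had 25.7, 26.9 and 25.4 RPKM in the knockdown and 34.4, 28.4 and 33.9 RPKM in the controls (−0.33, SE 0.0743, adjusted p = 0.00223); it overlaps PPP2R2D on the other strand, which rose (0.43), and 46 annotated pseudogenes carry its name, so its value is uncertain. ANKRD37, a small ankyrin-repeat gene induced by hypoxia, had 2.24, 2.44 and 2.46 RPKM in the knockdown and 3.75, 2.53 and 3.09 RPKM in the controls (−0.43, SE 0.142, adjusted p = 0.0203). That call was lost without control replicate 1 (adjusted p = 0.118), without knockdown replicate 1 (0.0778) and in DESeq2 (0.0633; range over all alternatives 0.00297 to 1). ANKRD37 overlaps LRP2BP and UFSP2 on the other strand, and UFSP2 had more reads, 1755 in the knockdown and 1487 in the controls, against 303 and 306 for ANKRD37, so its value is uncertain.

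The carbonic anhydrases CA9 and CA12 went opposite ways, and so did the collagen prolyl hydroxylase subunits P4HA1 and P4HA2. CA9, the cell surface carbonic anhydrase used as a marker of hypoxia, was rare, with 13, 2 and 4 reads in the knockdown and 15, 12 and 16 reads in the controls. Its CPM was lower in every knockdown library than in any control (−1.58, SE 0.415, adjusted p = 0.00572), and the log2 fold change was −2.47 without knockdown replicate 1 (adjusted p = 0.000725; range 0.000281 to 0.0423 over the alternatives that kept it, since the filter on mean log2 CPM dropped it). CA12, a related carbonic anhydrase, rose to 0.790, 1.003 and 1.008 RPKM in the knockdown, against 0.425, 0.446 and 0.375 RPKM in the controls (1.14, SE 0.148, adjusted p = 4.12e-05). P4HA1 and P4HA2 encode alternative catalytic subunits of the prolyl hydroxylase that collagen needs for a stable helix. P4HA1 fell to 30.6, 29.4 and 29.7 RPKM in the knockdown, against 44.7, 46.3 and 39.3 RPKM in the controls (−0.55, SE 0.0569, adjusted p = 6.39e-06). P4HA2 rose to 23.8, 22.3 and 23.1 RPKM in the knockdown, against 14.5, 15.4 and 14.6 RPKM in the controls (0.62, SE 0.0480, adjusted p = 6.54e-07). P4HA2 overlaps P4HA2-AS1, which had 718 reads in the knockdown and 443 in the controls. The P4HA1 and P4HA2 sum overlapped between the groups, at 53.0 ± 1.32 RPKM in the knockdown and 58.3 ± 4.0 RPKM in the controls (SD, n = 3 each).

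ADM, the vasodilator peptide adrenomedullin and a strong HIF target in many cells, was the most abundant of these targets and rose to 146, 153 and 146 RPKM in the knockdown, against 86.7, 81.6 and 93.6 RPKM in the controls (0.74, SE 0.0556, adjusted p = 5.01e-07). NDRG1, a stress-induced gene that many cells raise in hypoxia, did not pass, at 14.0, 13.8 and 13.9 RPKM in the knockdown and 12.6, 13.2 and 13.6 RPKM in the controls (0.06, SE 0.0520, adjusted p = 0.292).

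**Figure D3:**
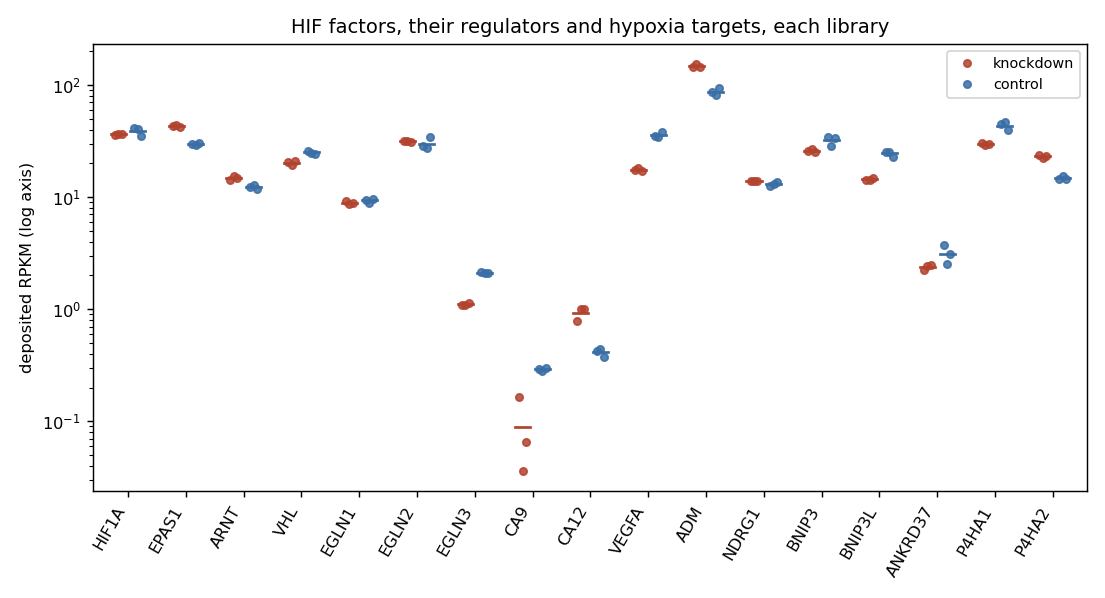
Deposited RPKM of the HIF factors, their regulators and hypoxia targets outside glycolysis in each library on a log axis, knockdown left of control. Points are libraries and bars are means of 3. EPAS1, ARNT, CA12, ADM and P4HA2 lie higher in the knockdown, and VEGFA, BNIP3L, EGLN3 and CA9 lie lower.

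Whether related genes changed by unequal amounts was asked through the ratio of their counts within each library, which no scaling can move. Of 17 pairs of related genes, 16 could be tested, and in 13 the ratio did not overlap between the groups. Single genes did not overlap in CPM for 71.3% of all genes tested. The share among pairs of unrelated genes was not computed, so the count of 13 is only a description. For each of those 13 an exact two-sided permutation test gave p = 0.1, the smallest that 3 against 3 libraries allow (0.123 adjusted over the 16 pairs), so none could pass 0.05. The difference in log2 ratio, knockdown minus control, was 1.02 for HK2 over HK1, −1.62 for ALDOC over ALDOA, 1.17 for P4HA2 over P4HA1, 0.62 for EPAS1 over HIF1A, −0.79 for PFKP over PFKM, −0.44 for PFKFB4 over PFKFB3 and −0.99 for EGLN3 over EGLN2. CA12 over CA9 had the widest shift, 3.01, and rests on the few CA9 reads. Smaller shifts were 0.20 for ENO2 over ENO1 and −0.18 for PFKP over PFKL. The ratio overlapped for LDHB over LDHA (−0.04, exact permutation p = 0.3), EGLN2 over EGLN1 (0.14, exact permutation p = 0.3) and SLC16A3 over SLC16A1 (−0.17, exact permutation p = 0.5), which does not show that these pairs changed alike.

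**Figure D4:**
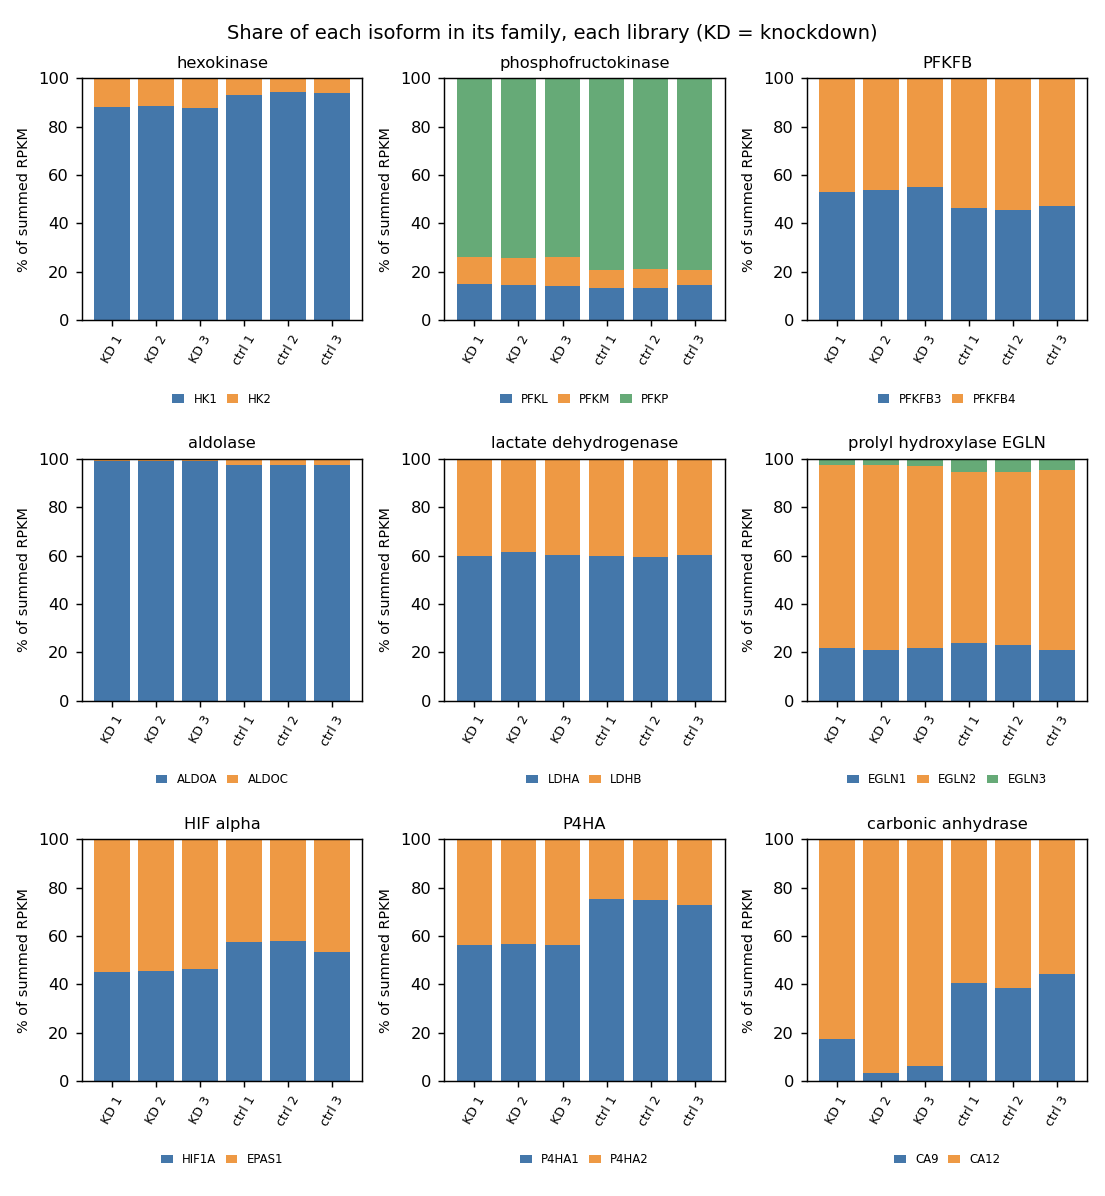
Share of each gene in the summed deposited RPKM of its family in every library, in percent, knockdown (KD) left of control (ctrl). HK2, EPAS1 and P4HA2 take larger shares in all 3 knockdown libraries, ALDOC and EGLN3 take smaller ones, and the lactate dehydrogenase pair stays near 60% LDHA.

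The sequence before the transcription start was read for the HIF core motif, ACGTG on either strand (CACGT when read on the coding strand), in RefSeq windows of 300 bases, from 250 before to 50 after the start (GRCh38.p14). A window was at hand for 35 of the 41 genes. Each of these genes was read in 1 window, at its outermost annotated start or, failing that, the first by coordinate. The motif was found in 15 of these 35 windows (42.9%), against 21.4% of all 35116 windows of that length. The latter include several windows for some genes, so the shares are not over like units. The genes were also chosen as known hypoxia response and glycolysis genes, so their higher share is no result of the knockdown. It was found in 11 of 22 windows of genes that fell, in 1 of 7 windows of genes that rose and in 3 of the other 6. By role, 9 of 17 enzyme windows held it, as did 4 of 7 of targets outside glycolysis, 2 of 6 of HIF factors and regulators, and none of the 3 of regulators of glycolysis or the 2 of carriers. The windows of these genes were also richer in G and C (median 69.7%) than all windows (58.7%). In 6 of the 35 windows, against 7.26% of all, the motif lay within CACGTG, which is also the binding motif of other factors such as MYC and USF. A match is a description and shows no binding, and HIF sites also lie in enhancers outside these windows. The promoters of 4 genes are shown because they carry the motif before genes that changed unequally: the enzymes ALDOC, LDHA and PGK1, which fell, and HK2, which rose. Each line gives the 250 bases before the start on the coding strand, 5′ to 3′, with matches in capitals.
ALDOC (chr17:28576896-28577145, minus strand): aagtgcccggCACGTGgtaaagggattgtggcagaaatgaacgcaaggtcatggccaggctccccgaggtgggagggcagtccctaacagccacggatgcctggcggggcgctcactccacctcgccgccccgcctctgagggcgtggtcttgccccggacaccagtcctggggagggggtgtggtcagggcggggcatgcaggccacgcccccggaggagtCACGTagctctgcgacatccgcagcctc
LDHA (chr11:18394313-18394562, plus strand): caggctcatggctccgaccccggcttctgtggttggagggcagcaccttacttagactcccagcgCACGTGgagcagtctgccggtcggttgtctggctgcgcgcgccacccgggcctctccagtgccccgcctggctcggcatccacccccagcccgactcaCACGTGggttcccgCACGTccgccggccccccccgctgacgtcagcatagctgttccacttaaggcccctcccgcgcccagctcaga
PGK1 (chrX:78103998-78104247, plus strand): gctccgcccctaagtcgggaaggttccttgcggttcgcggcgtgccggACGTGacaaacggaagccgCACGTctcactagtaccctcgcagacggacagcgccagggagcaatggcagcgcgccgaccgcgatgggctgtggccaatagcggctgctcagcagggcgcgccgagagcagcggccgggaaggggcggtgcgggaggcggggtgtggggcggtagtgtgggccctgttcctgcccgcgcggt
HK2 (chr2:74833877-74834126, plus strand): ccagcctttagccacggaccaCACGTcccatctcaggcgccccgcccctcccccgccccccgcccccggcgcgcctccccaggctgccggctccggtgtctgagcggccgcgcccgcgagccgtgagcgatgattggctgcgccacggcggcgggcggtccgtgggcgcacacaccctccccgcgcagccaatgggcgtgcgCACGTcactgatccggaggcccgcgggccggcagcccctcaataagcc
The ALDOC stretch holds 2 matches, the LDHA stretch 3, the PGK1 stretch 2 and the HK2 stretch 2. The longer CACGTG was found in the windows of ALDOC and LDHA and not in those of PGK1 and HK2.

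Genes that border on these pathways were taken from further lists. Over all genes tested, 33.1% were higher and 34.2% lower, and the counts here and in the paragraphs below stand beside those shares. No list was tested against them. Other hypoxia-inducible genes went both ways, with 18 of 43 tested higher, 16 lower and 9 that did not pass, and a median of 0.08. PLIN2, a lipid droplet protein, averaged 40.3 ± 0.0499 RPKM in the knockdown and 16.2 ± 0.951 RPKM in the controls (SD, n = 3 each) and rose by 1.30 (adjusted p = 3.84e-09). MAFF, a small MAF transcription factor, rose by 1.56 (SE 0.0782). HMOX1, which breaks down haem and answers to oxidative stress as well as to hypoxia, fell to 36.6 ± 1.47 RPKM in the knockdown, against 182 ± 13 RPKM in the controls (−2.33, SE 0.0619, adjusted p = 3e-10). BHLHE41, a transcriptional repressor, fell (−1.17, SE 0.0430). Among other HIF pathway regulators, 7 of 12 fell and 2 rose. ARNT2, a partner subunit related to ARNT, fell to 0.239 ± 0.0122 RPKM in the knockdown, against 1.37 ± 0.0331 RPKM in the controls (−2.52, SE 0.101, adjusted p = 4.9e-09). CUL2, the scaffold of the VHL ligase, fell (−0.39, SE 0.0593), while the coactivators EP300 (0.15, adjusted p = 0.0413) and CREBBP (0.11, adjusted p = 0.0466) only just passed and were lost under some alternatives (adjusted p 0.00611 to 1 and 0.00377 to 1).

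Downstream of pyruvate, 6 of 13 genes of pyruvate entry and pyruvate dehydrogenase rose and 3 fell. PDP1, a phosphatase that switches pyruvate dehydrogenase on, rose by 0.81 (SE 0.0712), and MPC1, a subunit of the mitochondrial pyruvate carrier, by 0.57 (SE 0.0750). PDK2, a kinase that switches the complex off, fell (−1.02, SE 0.0692), and so did the phosphatase PDP2 (−0.84, SE 0.0674). In gluconeogenesis and glycogen turnover, 4 of 12 rose and 7 fell. PC, pyruvate carboxylase, averaged 11.3 ± 0.592 RPKM in the knockdown and 2.95 ± 0.165 RPKM in the controls (SD, n = 3 each; log2 fold change 1.92, SE 0.0691, adjusted p = 2.39e-09). PYGL, the liver glycogen phosphorylase, rose by 0.93 (SE 0.0464). PCK2, the mitochondrial phosphoenolpyruvate carboxykinase, fell (−1.27, SE 0.0730), as did G6PC3, a glucose 6-phosphatase (−0.89, SE 0.0697).

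In the pentose phosphate pathway, which branches off at glucose 6-phosphate, 3 of 9 genes were higher and 3 lower. These counts were near the shares over all genes, 33.1% higher and 34.2% lower. RBKS, ribokinase, rose by 0.94 (SE 0.108). H6PD, an enzyme of the endoplasmic reticulum that makes NADPH, fell (−0.87, SE 0.0495), and so did RPIA, which isomerises ribose 5-phosphate (−0.72, SE 0.0655). Of 30 other isoforms of glycolytic enzymes and carriers, 18 were tested, 8 rose and 6 fell, and no tested one was above 17.04 RPKM in any library. SLC2A8 (0.72, SE 0.113) and SLC16A7 (1.68, SE 0.273) rose, and SLC2A6 (−0.84, SE 0.0877) and LDHD, which acts on D-lactate (−1.52, SE 0.224), fell.

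**Figure D5:**
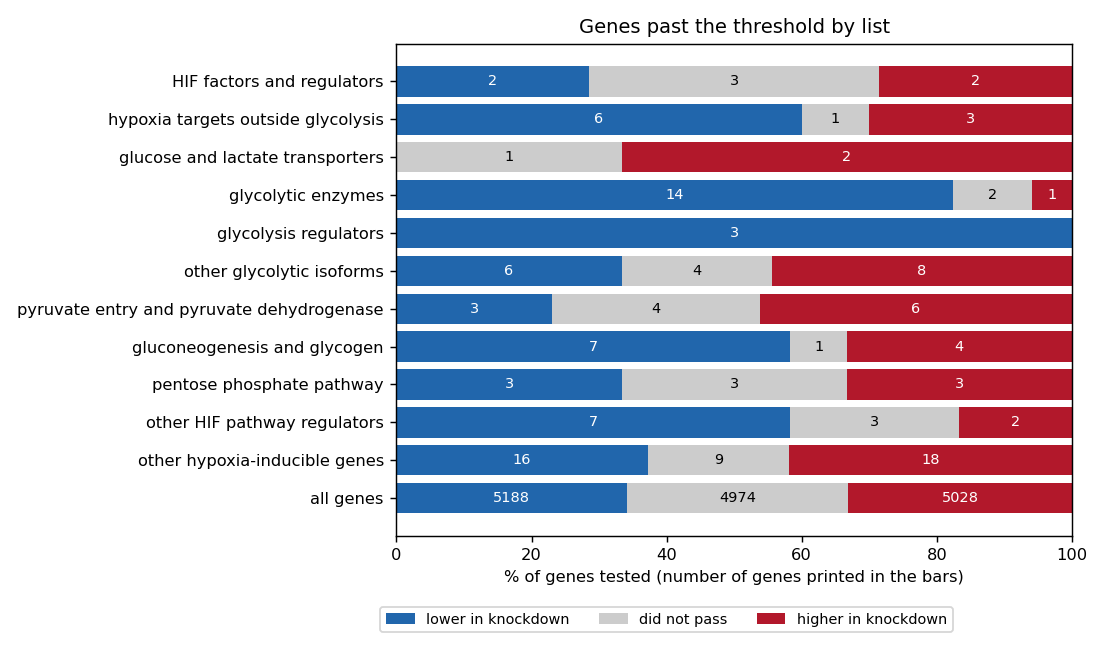
Share of tested genes that were lower, did not pass or were higher in the knockdown, by list, with the number of genes printed in the bars and all genes in the lowest bar. The glycolytic enzymes have 14 of 17 genes in the lower class, and other hypoxia-inducible genes 16 of 43, against 5188 of 15190 over all genes.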

How the data were processed

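Poly(A) RNA from 6 PANC-1 libraries, 3 knockdown and 3 control, was grouped by the siRNA label. Per the submitters' processing notes, reads were aligned with GSNAP to GRCh38. Per the file headers, the authors deposited for each gene the count of uniquely aligned reads and an RPKM adjusted by a size factor. The sources used here do not give the annotation, strand setting, size factor method or versions. The deposited RPKM equal the counts divided by a constant per gene and one per library, so tests used the counts and RPKM gave levels per length. Symbols came from RefSeq (GRCh38.p14) for 27814 of 30727 IDs, and IDs without a symbol stayed in the tests.

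Counts were filtered with filterByExpr (minimum count 10, minimum total 15), which left 15190 genes, normalised by TMM and compared in R 4.3.3 with the two-sided quasi-likelihood test of edgeR 4.0.16 (glmQLFit and glmQLFTest). Benjamini-Hochberg adjustment ran over all genes tested, with a threshold of 0.05. The fit was also run on simulated counts in which few genes changed and both groups had the same spread. These data differ on both points, so that run does not show how the test performs here. Fold changes are knockdown over control, and SE denotes the standard error of a log2 fold change. The biological coefficient of variation was 0.0237 within the knockdown and 0.0781 within the controls. Ratios of related genes used counts with 0.5 added. Each library counted as 1 sample. Chi-square per degree of freedom exceeded 1 in all replicate pairs, which does not show that the libraries are separate cultures. The members, lists and pairs were chosen with earlier results of these data known. All 41 members could be named, with the 2 higher and 2 lower genes of smallest p of each further list. Overlapping genes other than small RNAs and those with few reads were named beside the member. HKDC1 falls outside this rule and was named after its values were seen. Some genes of the further lists are not reported here. Alternatives were other scalings, filters and tests (DESeq2 1.42.0, limma 3.58.1 voom, glmTreat) and removal of a GC or length trend. Further alternatives added pseudogene reads to the glycolytic enzymes or left out each library.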

Additional observations from a re-analysis of the deposited data

How the results depend on the processing

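Under 17 alternatives, the counts of genes past the threshold stayed within 1.5 times of those reported except against a 1.5-fold change (glmTreat). There, 2998 of all genes passed, 3 members were higher and 9 lower, 4 glycolytic enzymes were lower and 3 hypoxia targets outside glycolysis were lower, because the test asks for a larger change. Leaving out each library gave 9184 to 11277 genes in all, 7 to 10 members higher, 23 to 26 lower, 13 to 14 enzymes lower and 5 to 6 targets lower. The direction turned only for genes that had not passed. SLC16A3 was at −0.0247 with a GC trend removed and −0.005 without a count filter. Without single libraries it ranged from −0.0596 to 0.0995, and EGLN2 from −0.0194 to 0.1563. The median log2 fold change of all genes lay between −0.0134 and 0.0332 under every alternative run. Adding reads of annotated pseudogenes was done for the 17 glycolytic enzymes only, and changed no call. These reads added 0.567% to TPI1 and 1.18% to PGAM1, and no pseudogenes of the other enzymes were listed. Pseudogenes of the remaining members, such as the 46 named after BNIP3, were not looked up, so their calls were not tested in this way. No paired analysis was possible because the labels give no replicate numbers. CA9 had no value under the filter on mean log2 CPM. Depth limited CA9 and SLC2A3 most.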

Other observations

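GAPDH and PGK1 are widely used as reference genes in PCR, and both were among the genes that fell. A transcript that did not differ in CPM would read as 1.74-fold higher in the knockdown if set against GAPDH, and as 1.24-fold higher if set against PGK1. In the controls, GAPDH varied little, at 2299, 2290 and 2400 CPM, as it did in the knockdown libraries, at 1340, 1326 and 1340 CPM.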
